A study of Caenorhabditis elegans with 2 samples.

Results

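The genes described here encode chaperones and folding enzymes, and they were chosen by name as the protein-coding genes called dnj-, hsp-, cct- or pdi- in the Ensembl WBcel235 annotation, without pdi-2. They number 62 of the 19973 protein-coding genes on the nuclear chromosomes of Caenorhabditis elegans, with 29 dnj, 22 hsp, 8 cct and 3 pdi genes. ELT-3 is a GATA-type transcription factor known from the epidermis of the worm, and the assay was ChIP-seq, which sequences the DNA that is pulled down with a protein. Both libraries came from pooled male and female L1 larvae of strain OP75 (unc-119(ed3) III; wgIs75), taken as whole organisms, with no other genotype, stage or treatment, so no test between groups could be made. A note on replicate 3 says that ELT-3 carries GFP and FLAG at its C terminus, and the labels do not name the promoter of the transgene. The antibody label reads elt-3 while the descriptions of both libraries name eGFP-elt-3 as the target, so which antibody was used is not settled. The libraries are numbered as biological replicates 1 and 3. The worms of replicate 1 have CGC as their source and those of replicate 3 Michael Snyder, and signal from all cells of the larva is summed.

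Chaperones hold or refold unfolded proteins. HSP70 proteins bind short exposed stretches in a cycle driven by ATP, J-domain proteins (the dnj genes) bring them substrates and start that cycle, and HSP110 proteins exchange the nucleotide. The chaperonin CCT is a double ring built from the products of the cct genes and folds actin and tubulin, HSP60 is the chaperonin of mitochondria, small heat shock proteins keep unfolding proteins soluble, and protein disulfide isomerases (pdi) form and rearrange disulfide bonds in the endoplasmic reticulum, where cuticle collagens are also folded. Many of these genes are known targets of the heat shock factor HSF-1, which binds alternating GAA and TTC units called heat shock elements.

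A peak was assigned to a gene where a summit, the highest point of a deposited region, lay from 1000 bp upstream to 500 bp downstream of its 5′ end. Of the 62 genes, 20 had a summit in the thresholded list, the 2940 regions the authors kept after a reproducibility test. This is 32.3% (95% exact binomial interval 20.9 to 45.3%), beside 9.4% of all coding genes (1878 of 19973). Among the 10896 coding genes that have a name rather than a clone number, the share was 11.8%. The intervals here and below cover the counting of genes or peaks only. The 20 genes had 20 distinct peaks, and every one of them lay upstream of its gene. By family the peak was present at 9 of 29 dnj genes (31.0%, 15.3 to 50.8%), 6 of 22 hsp genes (27.3%, 10.7 to 50.2%), 3 of 8 cct genes (37.5%, 8.52 to 75.5%) and 2 of 3 pdi genes (66.7%, 9.43 to 99.2%). These 4 intervals overlap, so no family differed from another in this list beyond what so few genes can resolve.

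The sequences around the summits show what these peaks hold at their centres. Each run has 101 bases centred on the summit, in build ce11, and reads 5′ to 3′ on the strand of the chaperone gene. They were chosen with their motifs known, to show summits with and without motifs, so they are not the strongest in order. Every family is shown, but not with both kinds of summit. Motif-bearing dnj summits are over-represented: all dnj sequences shown hold a motif, though the summits of dnj-9, dnj-11 and dnj-14 hold none. No cct or pdi summit held any. Capitals mark the GATA motif (GATA with A or T before it and A or G after it), a pair of facing heat shock element units (TTCNNGAA or GAANNTTC) or GAGAGA, each searched on both strands.
hsp-1 (chrIV:17278532-17278632, forward strand): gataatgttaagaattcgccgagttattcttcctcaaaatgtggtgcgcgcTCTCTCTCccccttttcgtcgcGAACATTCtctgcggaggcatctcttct
hsp-110 (chrIII:8447114-8447214, reverse strand): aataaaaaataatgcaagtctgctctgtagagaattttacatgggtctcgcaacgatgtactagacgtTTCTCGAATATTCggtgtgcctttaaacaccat
dnj-13 (chrII:11545448-11545548, forward strand): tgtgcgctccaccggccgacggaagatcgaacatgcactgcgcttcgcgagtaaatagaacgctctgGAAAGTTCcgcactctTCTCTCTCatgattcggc
dnj-19 (chrV:5505167-5505267, reverse strand): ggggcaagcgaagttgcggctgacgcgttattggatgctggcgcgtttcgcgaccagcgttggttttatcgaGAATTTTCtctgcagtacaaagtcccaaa
dnj-22 (chrV:8462234-8462334, reverse strand): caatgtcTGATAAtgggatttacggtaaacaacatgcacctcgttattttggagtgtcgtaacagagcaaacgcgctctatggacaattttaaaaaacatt
dnj-7 (chrX:7193966-7194066, forward strand): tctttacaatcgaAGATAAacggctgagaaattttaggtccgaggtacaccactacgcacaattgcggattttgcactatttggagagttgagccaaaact
hsp-60 (chrIII:1619083-1619183, forward strand): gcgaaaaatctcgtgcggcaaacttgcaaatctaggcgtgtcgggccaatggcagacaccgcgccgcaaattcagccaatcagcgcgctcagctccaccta
hsp-3 (chrX:6092123-6092223, reverse strand): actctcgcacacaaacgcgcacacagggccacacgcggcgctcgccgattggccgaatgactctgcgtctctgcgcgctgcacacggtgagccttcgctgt
cct-8 (chrIV:1094332-1094432, reverse strand): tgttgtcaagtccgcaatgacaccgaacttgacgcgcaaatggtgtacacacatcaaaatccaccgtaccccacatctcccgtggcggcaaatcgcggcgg
pdi-6 (chrX:7068524-7068624, reverse strand): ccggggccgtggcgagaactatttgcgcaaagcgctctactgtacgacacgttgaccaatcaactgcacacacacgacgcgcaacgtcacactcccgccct
In hsp-110 the capitals are a run of 3 alternating units, in hsp-1 and dnj-13 both an element pair and a GAGAGA stretch, in dnj-19 an element pair, and in dnj-22 and dnj-7 a GATA motif. The sequences of hsp-60, hsp-3, cct-8 and pdi-6 hold none of the motifs searched.

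The highest single value was at a disulfide isomerase gene, and the family ranged widely. At pdi-3 the deposited signal of the region, a height given by the authors' peak caller, was 273.8 in the pooled data, 254.1 in replicate 1 and 20.5 in replicate 3, which is rank 15 of 2940 in the thresholded list, rank 18 in replicate 1 and rank 25 in replicate 3. It was the strongest peak of the 20, and it stood near the top of both libraries. Its summit lay 641 bp upstream of pdi-3 and also in the window of ubql-1, a ubiquilin gene on the opposite strand, to which it was closer. At pdi-6 the signal was 108.4 pooled and 101.1 in replicate 1, with the summit 11 bp upstream, and no region of replicate 3 overlapped it. The remaining gene, pdi-1, had no thresholded peak, and its strongest region had signal 24.0 in the pooled list (rank 4528 of 30000), 17.02 in replicate 1 and 2.16 in replicate 3.

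Among the hsp genes most of the peaks were at genes of the HSP70 type. HSP70 and HSP110 genes had one at 4 of 6 (66.7%, 22.3 to 95.7%), the HSP60 gene had one, small heat shock protein genes had one at 1 of 13 (7.69%, 0.195 to 36.03%), and the HSP90 genes had none in their windows. The share over all coding genes was 9.4%, close to that of the small heat shock genes and below the interval of the HSP70 and HSP110 genes. The intervals of the HSP70 and the small heat shock genes overlap. The split by class was made with earlier results of these data known, so it is a description. For hsp-1, the constitutive cytosolic HSP70, the signal was 151.7 pooled, 143.9 in replicate 1 and 7.69 in replicate 3, and the summit lay 377 bp upstream with no other coding gene in reach. For hsp-3, an HSP70 of the endoplasmic reticulum (a BiP), it was 141.3 pooled, 131.3 in replicate 1 and 9.77 in replicate 3, at 49 bp upstream. Both stood within the first 1000 regions of each library.

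For hsp-110 the signal was 141.2 pooled, 133.7 in replicate 1 and 6.33 in replicate 3, at 255 bp upstream, in a gap shared with the proteasome subunit gene rpn-3. For hsp-6, the mitochondrial HSP70, it was 41.3 pooled and 37.5 in replicate 1 with no region in replicate 3, near the bottom of the thresholded list (rank 2268 of 2940). The mitochondrial partner of hsp-6, hsp-60, was instead among the highest: 164.0 pooled, 141.9 in replicate 1 and 20.8 in replicate 3, where it ranked 24. Its summit lay 609 bp upstream of hsp-60 and nearer to Y22D7AL.10 on the opposite strand.

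The other BiP gene, hsp-4, had no thresholded peak, and its strongest region had signal 11.3 in the pooled list (rank 11919 of 30000), 13.6 in replicate 1 and 2.10 in replicate 3. The heat-inducible hsp-70 had no region in any of the 4 lists. The single small heat shock gene with a thresholded peak, hsp-25, had it 895 bp upstream, at 38.8 pooled and 31.7 in replicate 1, with none in replicate 3. Of the other 12, hsp-43 reached 27.0 in the pooled list (rank 3978), the divergent neighbours hsp-16.2 and hsp-16.41 shared a region of 12.1 (rank 10630), and 9 had no region in any list: hsp-12.1, hsp-12.2, hsp-12.3, hsp-12.6, hsp-17 and the gene copies named hsp-16.1 and hsp-16.48. Ensembl gives each of these last names to a pair of genes, and reads of near-identical copies may be lost or split, so their absence from the lists is uncertain.

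All 3 cct peaks were found in both libraries. For cct-1 the signal was 146.0 pooled, 137.7 in replicate 1 and 7.77 in replicate 3, 239 bp upstream (chrII:8185113-8185305). For cct-8 it was 140.5 pooled, 130.4 in replicate 1 and 9.50 in replicate 3, 462 bp upstream. For cct-6 it was 59.3 pooled, 55.0 in replicate 1 and 4.12 in replicate 3, 295 bp upstream (chrIII:5855807-5856156). Each summit was in the window of an opposite-strand gene too (mig-5, Y55F3AR.2 and alh-9) and closer to that gene's 5′ end than to the chaperonin gene, so a count of nearest genes alone gave 0 cct genes with a peak.

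The other subunits of the same complex spread over a wide range. The summit at cct-7 had signal 33.8 and rank 2981 of the pooled list, just under the lowest thresholded region at 34.2. The signals at cct-5, cct-2 and cct-4 were 24.8, 18.1 and 14.3 (ranks 4383, 6257 and 8398). No list had a region at cct-3, whose nearest thresholded summit lay 166479 bp away. Subunits of one ring thus ran from rank 139 to no region at all.

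**Figure D1:**
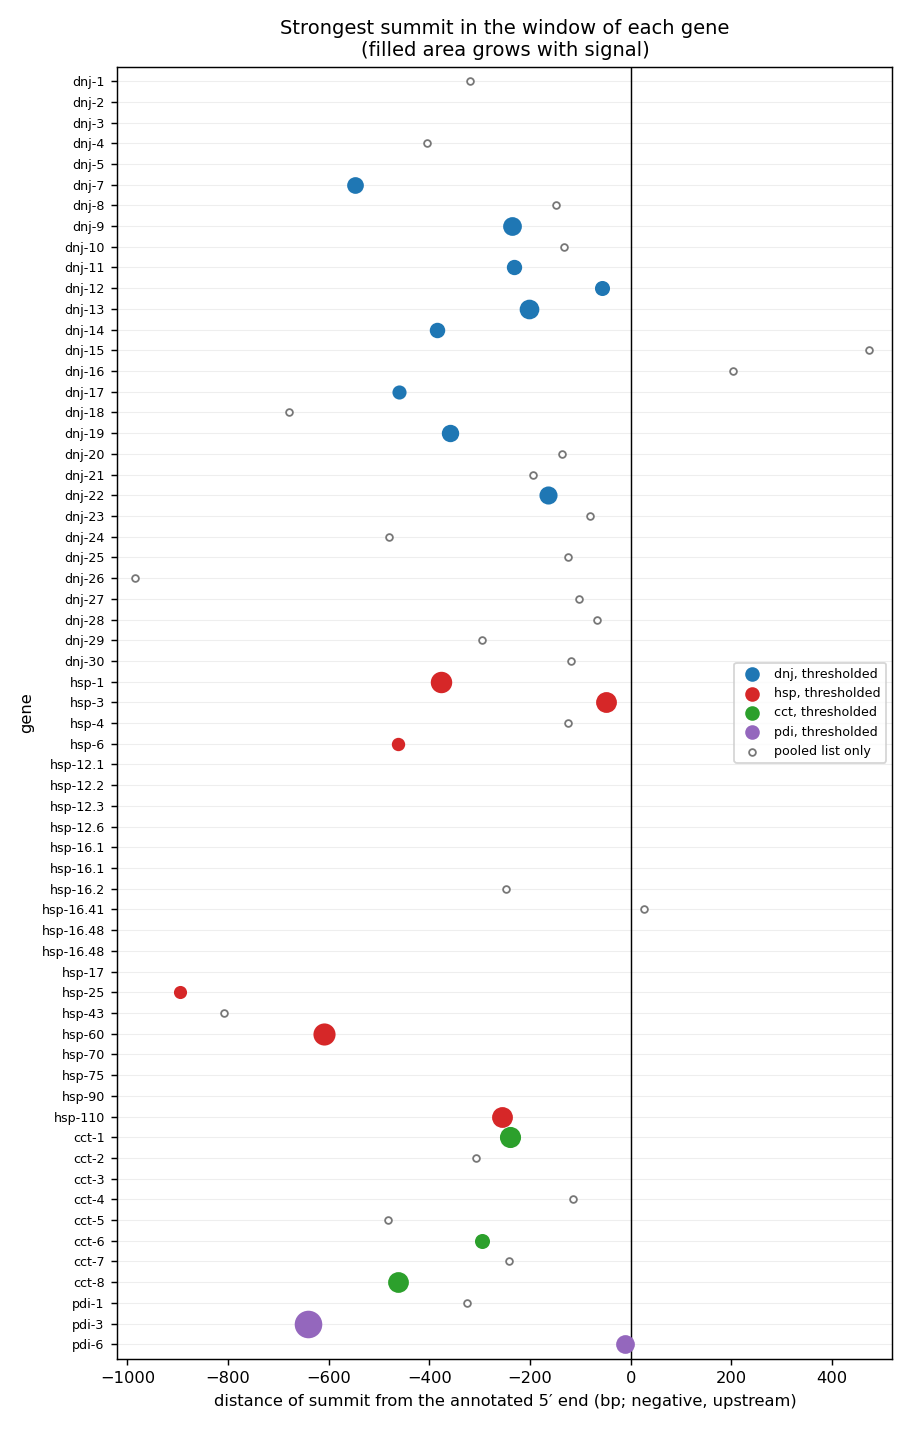
Position of the strongest summit in the window of each chaperone gene, in bp from the annotated 5′ end (negative is upstream), with filled points for thresholded peaks coloured by family and sized by signal, open points for regions of the pooled list only, and empty rows for genes with neither. All 20 filled points lie to the left of 0, between 895 and 11 bp upstream, and most of the small heat shock rows are empty.

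The J-domain family, the largest, had peaks at 31.0% of its genes, near the 32.3% over all chaperone genes. Those with a region in replicate 3 (6 of 9, beside 4 of 6 for hsp) had a median rank there of 7654.5. For all 850 such peaks in coding windows it was 4518.5. The highest was at dnj-13, whose product is a class B J-protein of the cytosol: 122.7 pooled, 120.7 in replicate 1 and 2.99 in replicate 3, where the region ranked 13943 of 24854. Its summit lay 203 bp upstream and was the only one of the 20 inside the span of another coding gene, dhgd-1. At dnj-9 the signal was 108.5 pooled, 106.4 in replicate 1 and 3.86 in replicate 3. At dnj-22 it was 99.1 pooled, 100.4 in replicate 1 and 2.57 in replicate 3.

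At dnj-19, a class A J-protein gene, the signal was 89.0 pooled and 87.4 in replicate 1, with no region in replicate 3. At dnj-7, a J-protein gene of the endoplasmic reticulum (P58IPK), it was 80.2 pooled, 76.5 in replicate 1 and 4.04 in replicate 3. At dnj-14, which encodes the cysteine string protein of synaptic vesicles, it was 64.4, 58.3 and 4.40 in the same order. The remaining peaks were at dnj-11 (62.9 pooled), dnj-12, another class A gene (59.8), and dnj-17 (49.4), and of these dnj-17 alone had a region in replicate 3 (4.83). None of the 9 dnj peaks was among the highest 2940 regions of replicate 3.

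**Figure D2:**
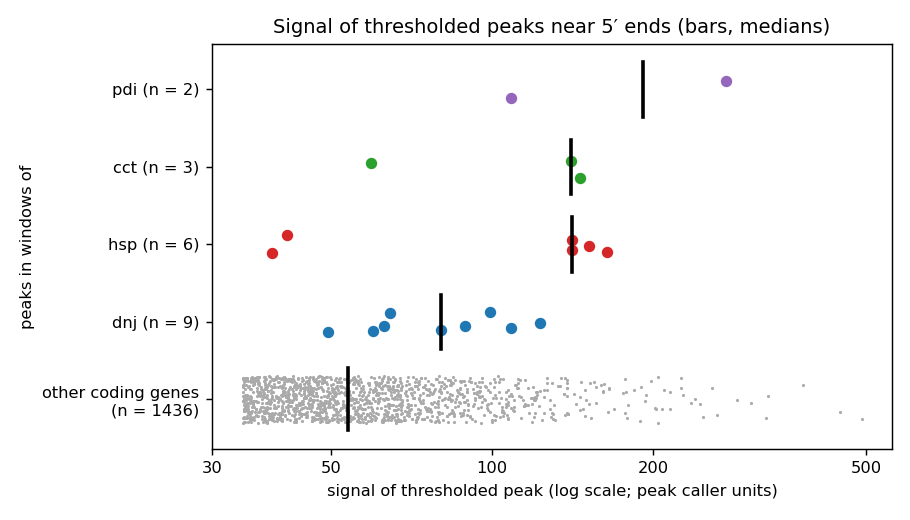
Signal of the thresholded regions, as given by the authors on a log scale, for the dnj, hsp, cct and pdi peaks and for the 1436 other thresholded peaks in a coding gene window (points, peaks; bars, medians). The median of the other peaks is 53.7, those of the 4 families lie between 80.2 and 191.1, and the hsp peaks fall into 4 at 141.2 to 164.0 and 2 at 38.8 and 41.3.

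The chaperone peaks were high within the thresholded list. Their median signal was 103.8 (38.8 to 273.8), beside 53.9 (34.2 to 490.4) over the 1456 thresholded peaks with a summit in a coding window. The signal exceeded the median of the whole list at 17 of 20 chaperone peaks (85%, 62.1 to 96.8%) and at 51.03% of those 1456. By family the median was 80.2 for dnj, 141.3 for hsp, 140.5 for cct and 191.1 for pdi, with 9, 6, 3 and 2 peaks. The median GC content around the summit was 47.5% beside 43.6%, and its part in the signal was not tested.

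With weak regions counted, the dnj and hsp genes stood apart in the pooled list, but not in the thresholded or replicate 3 list. In the pooled list of 30000 regions, which also holds weak ones, 46 of 62 genes had a summit (74.2%, 61.5 to 84.5%) beside 41.6% of all coding genes. Here the dnj genes stood at 26 of 29 (89.7%, 72.6 to 97.8%) and the hsp genes at 10 of 22 (45.5%, 24.4 to 67.8%), so their intervals did not overlap and the hsp share was close to that of all genes. The cct genes had 7 of 8 and the pdi genes 3 of 3. The −log10 q given by the authors, low where the evidence for a region is weak, goes down to 0.0208 in this list. For the strongest pooled region of a gene it was as low as 0.064 among dnj genes (dnj-30) and 0.504 among hsp genes (hsp-4). Whether the families stand apart without such weak regions was not tested. The hsp genes without a pooled region include the hsp-16.1 and hsp-16.48 copies, whose absence is uncertain. They also include hsp-90, which had a peak outside its window. In the replicate 3 list the intervals overlapped, at 62.1% for dnj (42.3 to 79.3%) and 36.4% for hsp (17.2 to 59.3%). Of the 16 hsp genes without a thresholded peak 11 had no region in any list, beside 2 of 20 such dnj genes (dnj-3 and dnj-5). The share of all coding genes without a region in any list was not computed. Absence is common, since 41.6% of coding genes had a summit in the pooled list, 41.5% in replicate 1 and 35.4% in replicate 3.

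Among genes with a pooled region, the hsp genes had the higher median. The median signal of the strongest pooled region was 17.4 over the 26 dnj genes and 40.1 over the 10 hsp genes, beside 14.4 over all 8306 coding genes with one. Of the hsp genes 12 had no pooled region and 6 passed the threshold, while 17 of 29 dnj genes had a pooled region that did not pass it. The HSP70 and HSP110 genes had a median of 141.2 (5 genes) and the small heat shock genes 19.6 (4 genes).

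**Figure D3:**
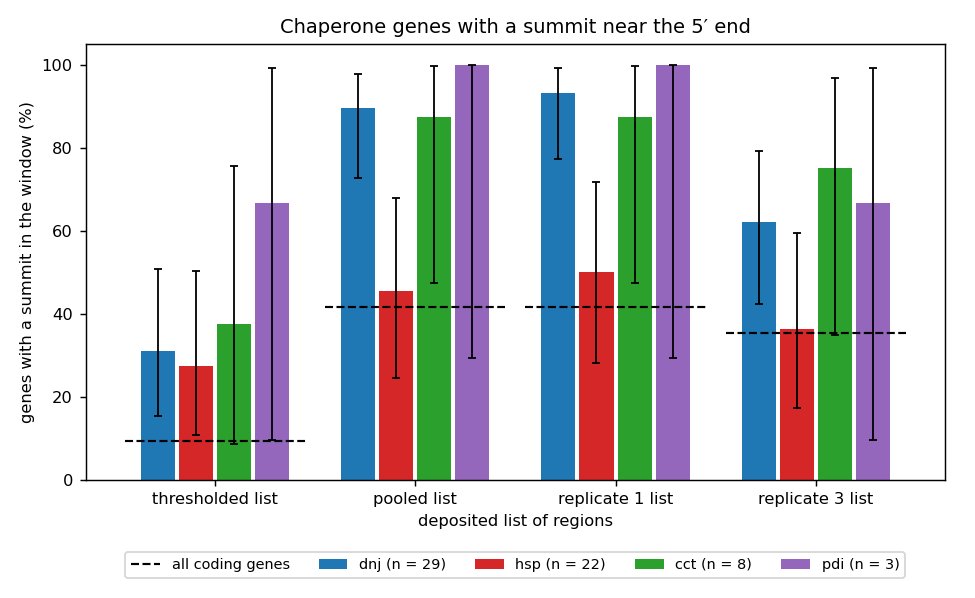
Share of the genes of each family with a summit in the window (bars, in percent, with 95% exact binomial intervals) in the thresholded, pooled, replicate 1 and replicate 3 lists, and the share of all coding genes (dashed lines). In the pooled list, which includes weak regions, the dnj bar is at 89.7% and the hsp bar at 45.5%, next to the dashed line at 41.6%.

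The libraries differed in strength, and the chaperone genes were less frequent in replicate 3. Signals reached 1006 in replicate 1 and 111.5 in replicate 3. In the list of replicate 1, 48 of 62 genes had a summit (77.4%) beside 41.5% of all coding genes, and in that of replicate 3, 34 of 62 (54.8%, 41.7 to 67.5%) beside 35.4%. Among the highest 2940 regions of replicate 1 the count was 20 of 62 beside 9.42% of coding genes. Among the highest 2940 of replicate 3 it was 8 of 62 (12.9%, 5.74 to 23.9%) beside 5.87% of coding genes and 6.68% of named ones, and the interval includes both of those shares.

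Those 8 were pdi-3, hsp-60, hsp-3, cct-8, cct-1, hsp-1, hsp-110 and dnj-28, a gene with no thresholded peak. By family they were 1 of 29 dnj, 4 of 22 hsp, 2 of 8 cct and 1 of 3 pdi genes. The share of dnj genes was 3.45% (0.0873 to 17.8%) and the interval includes the 5.87% of all genes. Of the 20 chaperone peaks 14 overlapped a region of replicate 3 by at least 1 bp (70%, 45.7 to 88.1%), beside 58.4% of the 1456. Genes with a thresholded peak that had such a region were 14 of 62 (22.6%, 12.9 to 34.97%) beside 5.48% of coding genes. These overlaps were counted without a cut-off on q, and the −log10 q of the replicate 3 list goes down to 0.384. For the overlapping region it was 0.778 at dnj-22 and 1.14 at dnj-13, so the evidence there is weak. At the others it ran from 1.999 (dnj-9) to 2.48, the highest value of that list.

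At the dnj peaks the replicate 3 summit lay 4 bp from the thresholded summit at dnj-17, 37 bp at dnj-13, 80 bp at dnj-9, 112 bp at dnj-14, 186 bp at dnj-22 and 225 bp at dnj-7. At the 8 hsp, cct and pdi peaks with a replicate 3 region it lay 0 to 42 bp away, a range that includes dnj-17 and dnj-13. The median rank in replicate 3 was 7654.5 for the 6 dnj peaks with a region there and 525.5 for the 4 hsp peaks. Over the 850 of the 1456 coding window peaks with such a region it was 4518.5. Beyond the thresholded peaks, the genes with the best replicate 3 ranks were dnj-28 (2797, signal 5.504), dnj-25, which encodes auxilin (4582, 4.73), cct-2 (4955, 4.604), dnj-26 (5887, 4.34) and dnj-23 (13133, 3.09), and the strongest pooled signals in their windows were between 8.39 and 29.6. These are mostly not the same regions: relative to the 5′ end the replicate 3 summit of dnj-28 lay at -807 bp and the pooled one at -67 bp, and those of dnj-25, cct-2 and dnj-26 lay downstream of the 5′ end in replicate 3 and upstream of it in the pooled list.

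**Figure D4:**
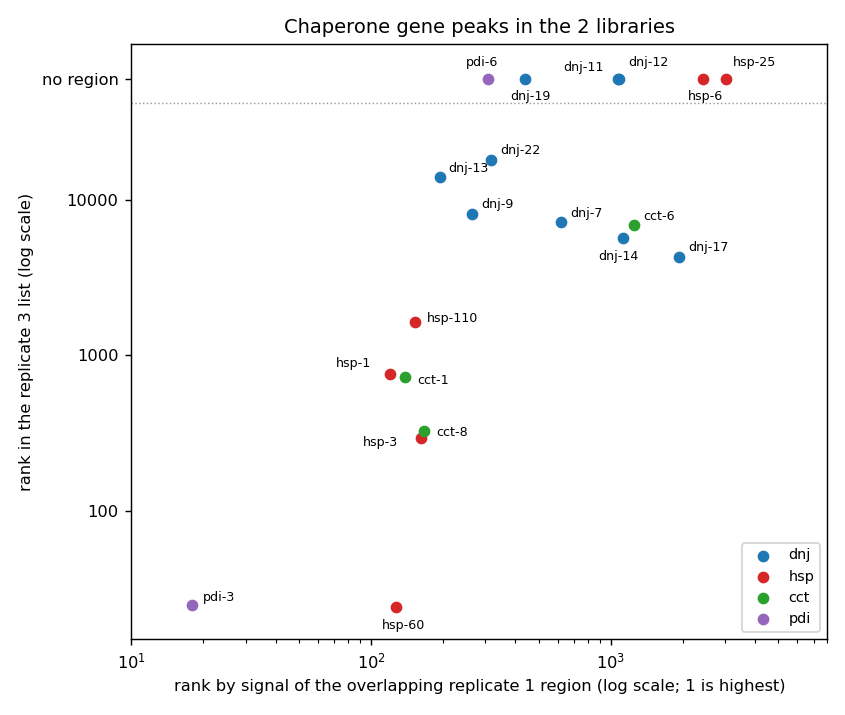
Rank by signal of the region that overlaps each of the 20 chaperone gene peaks in replicate 1 (horizontal, log scale) and in replicate 3 (vertical, log scale, with peaks that have no replicate 3 region above the dotted line), where 1 is the highest. The peaks of pdi-3 and hsp-60 rank 25 and 24 in replicate 3, and the best placed dnj peak there, at dnj-17, ranks 4295.

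The motif of GATA factors was at few of these summits. It was found within 50 bp of 3 of 20 summits (15%, 3.21 to 37.9%), at dnj-22, dnj-7 and hsp-25, beside 28.3% of the 1456 peaks in coding windows, a value inside the interval. In each of those 3 its first base lay 36 to 43 bases from the summit, as the capitals near the 5′ end of the dnj-22 and dnj-7 sequences show. Windows shifted by 500 bp to either side held it at 15% and 10% of the chaperone peaks and at 22.0% and 18.1% of the 1456. Allowing C before GATA as well raised the share to 25% beside 34.5%, and a search of 100 bp to each side to 35% beside 44.2%.

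A pair of facing heat shock element units lay within 50 bp of 6 of 20 summits (30%, 11.9 to 54.3%): hsp-1, hsp-110, dnj-13, dnj-19, dnj-12 and dnj-17. The same pair was at 6.18% of the 1456 peaks (90) and at 5.85% of the 1436 that are not at a chaperone gene. In all 6 it lay on the side of the summit nearer the chaperone gene, with its first base 12 to 42 bases away. The longer element of 3 alternating units (TTCNNGAANNTTC or GAANNTTCNNGAA), looked for after the values were seen, was at the summits of hsp-110 and dnj-12 and at 9 of the 1456 (0.618%). No cct or pdi summit held any of these, and GAGAGA was at hsp-1 and dnj-13 (10%) beside 21.5%.

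Heat shock elements stood in genes with and without a peak. In a promoter window of 250 bp upstream to 50 bp downstream, chosen after the values were seen, 11 of 62 chaperone genes had the element of 3 units (17.7%) beside 1.98% of all coding genes (395). It was in 3 of the 20 genes with a thresholded peak (15%) and in 8 of the 42 without (19.05%). Those 8 were hsp-70, hsp-90, which had a peak outside its window, and the 6 hsp-16 genes. The hsp-16 genes face away from each other in pairs across 220 to 348 bp, so an element can count for both genes of a pair. They include the hsp-16.1 and hsp-16.48 copies, whose absence from the lists is uncertain. The 10 hsp genes that had it were hsp-1, hsp-110, hsp-70, hsp-90 and all 6 hsp-16 genes, and dnj-12 was the only one outside that family. The pair of units was in 9 of 20 and 20 of 42 (45% and 47.6%), and in 7 of 8 cct genes, beside 32.6% of all coding genes.

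**Figure D5:**
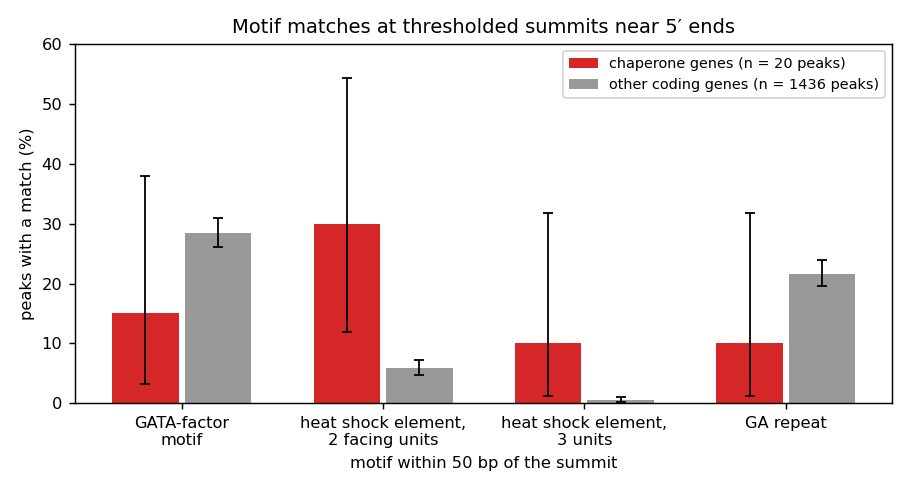
Share (in percent, with 95% exact binomial intervals) of summits with the GATA motif, a heat shock element of 2 facing units or of 3 units, or GAGAGA (GA repeat) within 50 bp, for the 20 chaperone gene peaks and the 1436 other thresholded peaks in coding windows. The GATA motif is at 15% and 28.5%, the element of 2 units at 30% and 5.85%, that of 3 units at 10% and 0.487%, and GAGAGA at 10% and 21.7%.

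A pair of loci that carry the elements show the range of signal. The gene of the cytosolic HSP90, hsp-90, counted as having no peak, because the summit was 876 bp into the gene as counted from its outermost start. That peak (chrV:14685652-14685904) had signal 225.2 pooled, 214.3 in replicate 1 and 7.46 in replicate 3, rank 41 of 2940, and so exceeded every chaperone peak but that of pdi-3. It lay within the span of hsp-90, 366 bp upstream of the later of its annotated transcript starts. The summit was also in the window of another coding gene, C47E8.4. Between hsp-16.2 and hsp-16.41, whose 5′ ends face away from each other across 220 bp, the strongest region in their windows had signal 12.1 in the pooled list, 11.98 in replicate 1 and 2.57 in replicate 3. Only the replicate 1 summit lay in that gap, since the pooled one was 26 bp inside hsp-16.41 and that of replicate 3 was 185 bp inside hsp-16.2. Both sequences, chosen after their values were seen, hold element units (capitals) and no GATA motif.
hsp-90 (chrV:14685744-14685844, forward strand): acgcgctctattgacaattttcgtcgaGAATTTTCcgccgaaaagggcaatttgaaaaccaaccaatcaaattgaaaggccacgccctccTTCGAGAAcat
hsp-16.2 to hsp-16.41 (chrV:1804958-1805177, forward strand): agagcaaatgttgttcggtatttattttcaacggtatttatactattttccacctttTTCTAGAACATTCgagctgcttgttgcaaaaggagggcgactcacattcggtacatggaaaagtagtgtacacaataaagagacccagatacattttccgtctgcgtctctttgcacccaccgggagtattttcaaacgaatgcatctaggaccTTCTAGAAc
The hsp-90 summit holds 2 pairs of units, and the gap of the hsp-16 genes 3, overlapping ones counted, with a run of 3 units near hsp-16.2.

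Most of the peaks stood between divergent genes. Of the 20 summits 14 (70%, 45.7 to 88.1%) were also in the window of a coding gene on the opposite strand, beside 28.2% of the 1456 peaks, and 11 of the 20 were closer to that gene, so for these the lists do not say which gene the region belongs to. Among chaperone genes with an opposite-strand gene starting within 1000 bp upstream, 13 of 29 had a thresholded peak (44.8%) beside 20.4% of all such coding genes. With a same-strand gene within that distance it was 1 of 13 (7.69%) beside 6.38%. With no gene there it was 6 of 20 (30%, 11.9 to 54.3%) beside 7.41%, and these 6 include hsp-1, hsp-3 and pdi-6, for which the chaperone gene is the only coding gene in reach.

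The median chaperone summit lay 327.5 bp upstream, beside 236 bp over all 1931 pairs of coding gene and summit, of which 91.3% had the summit upstream. On the X chromosome 5 of 6 chaperone genes had a peak (hsp-3, hsp-25, pdi-6, dnj-7 and dnj-14, but not hsp-43), or 83.3% (35.9 to 99.6%), beside 9.15% of all coding genes there. On the autosomes it was 15 of 56 (26.8%, 15.8 to 40.3%) beside 9.44%. The chromosomes were compared after the values were seen.

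Genes just outside the rule had peaks as well. At hsp-12.3 a summit of signal 81.8 lay 848 bp downstream, in the window of F38E11.9. At dnj-2 one of 38.7 lay 1095 bp upstream, in the window of the prefoldin gene pfd-4, and at dnj-16 one of 53.4 lay 1334 bp upstream. Inside the upstream limit of 1000 bp the farthest summits were those of hsp-25 at 895 bp and then pdi-3 at 641 bp.

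Other genes of protein folding, from a list made with earlier results of these data known, had thresholded peaks at 21 of 55 (38.2%, 25.4 to 52.3%), beside 9.4% of all coding genes, a share against which the smaller counts that follow are also to be read. Prefoldin, which hands unfolded actin and tubulin to CCT, had 4 of 6 subunits (pfd-6 at 149.7, pfd-1 at 134.1, pfd-5 at 114.8 and pfd-4 at 38.7). HSP70 and HSP90 cofactors had 3 of 10: the nucleotide exchange factor bag-1 at 225.9, unc-23 at 104.9 and sti-1, which links HSP70 to HSP90, at 64.0. In the endoplasmic reticulum 2 of 5 had one, enpl-1 (GRP94) at 110.5 and crt-1 (calreticulin) at 99.7.

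Of the unfolded protein response 4 of 6 genes had a peak: xbp-1 at 73.5, atf-6 at 64.1, pek-1 at 36.25 and ubl-5 at 34.9, while ire-1 and atfs-1 did not. Prolyl isomerases had 8 of 24, from cyn-6 at 34.5 to cyn-3 at 88.2, the others being cyn-1, cyn-4, cyn-7, cyn-10, fkb-5 and fkb-6. The genes of heat shock control, hsf-1 itself, its inhibitor hsb-1, ddl-1 and ddl-2, had 0 of 4. Among the highest 2940 regions of replicate 3 the count over this list was 7 of 55 (12.7%, 5.27 to 24.5%), and the interval includes the 5.87% of all coding genes.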

How the data were processed

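The data are ChIP-seq region lists from 2 libraries of whole L1 larvae, replicates 1 and 3, in build ce11. Per the deposited manifests there is a list for each library and a list for the pooled reads. A thresholded list holds the regions kept after a reproducibility test (IDR). A place in it did not require a region in each library. Of its 2916 nuclear peaks, 58.6% overlapped a region of replicate 3 and 99.8% a region of replicate 1. For the aligner and the peak caller, names and settings were not given in the sources used here. Each region carries a signal value and a −log10 q-value from the authors' caller, and both are given as deposited. No list or count was filtered on q here. The −log10 q of the authors is the same for all thresholded regions, so regions were ranked by the deposited signal. The thresholded list equals the 2940 pooled regions of highest signal. Read counts are not in the lists, so the depth behind a value is unknown and no interval on a signal is given. No column was left unmapped (0).

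Gene starts came from the Ensembl WBcel235 annotation, which has the same assembly as ce11, taking the longest extent of each gene. A summit was given to each gene whose 5′ end it preceded by at most 1000 bp or followed by at most 500 bp. Motifs were searched on both strands in the genome within 50 bp of the summit. Intervals are exact binomial (Clopper-Pearson, 95%). The members and lists were chosen with earlier results of these data known. The genes named are all with a thresholded peak, all cct and pdi genes, up to 5 further ones by replicate 3 rank, the hsp classes, and the other folding genes with a peak. Windows, the counting of peaks, the motif and the libraries were varied in 10 ways for the closing section. The assignment of summits was tested on simulated data. Analyses used Python 3.11.15, pandas 2.3.3 and scipy 1.17.1.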

Additional observations from a re-analysis of the deposited data

How the results depend on the processing

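The 20 genes with a thresholded peak (9 dnj, 6 hsp, 3 cct, 2 pdi) became 16 to 23 when the window, the transcript start or the overlap rule was changed (7.26 to 12.4% of all coding genes). They were 17 among the 1470 regions of highest signal (5.01%) and 14 when a region in each library, however weak, was required (5.47%). Within these, only the pdi count moved past 1.5 times, to 1 with the window cut to 500 bp before and 250 bp after the start, and to 1 with a region in each library. Giving each summit to its nearest coding gene left 9 genes (5 dnj, 3 hsp, 0 cct, 1 pdi), beside 7.14% of all coding genes. Counting only peaks with the GATA motif left 3 (2 dnj, 1 hsp, 0 cct, 0 pdi), beside 2.32%. Leaving out one library and taking the highest 2940 regions of the other gave 8 to 20 genes, 1 to 9 dnj, 4 to 5 hsp, 2 to 4 cct and 1 to 2 pdi. In each case the lower value is the one without replicate 1, where the share of all coding genes was also lower (5.87% beside 9.42%). No dnj gene with a thresholded peak was among the highest regions of replicate 3. The share of peaks that overlap replicate 3 was 70%, or 65% when the summit had to lie inside its region. The 3 pdi and 8 cct genes are too few for their shares to be told apart, and the depth of the libraries is unknown. No paired analysis was possible because there is a single group and the result comes from no test.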
